A study of Mus musculus with 12 samples.

Results

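The genes described here are 8 complement components and receptors, C1qa, C1qb, C1qc, C3, Cfb, Cfp, C3ar1 and C5ar1, which were picked by symbol from the 55401 genes of each count table. Every symbol was found on 1 row of each table, and all 8 genes passed the filter on low counts, which left 17532 and 17630 genes to test. They were followed in bulk RNA-seq of tumor-associated macrophages (TAMs), which were sorted from subcutaneous B16-F10 melanomas in mice. The study's methods give the TAM gate as CD45+CD11b+Ly6C-Ly6G-F4/80+. Its supplementary legends instead write Ly6C+Ly6G+ for the gating strategy and Ly6G-Ly6C+ for the TAM frequency. In the AMPK experiment, 3 libraries came from AMPKfl/fl mice (WT) and 3 from AMPKfl/fl mice that also carried Lyz2cre (AMPK-KO, written Lyz2cre/cre in the titles), all taken on day 15. In the stage experiment, 3 libraries came from early-stage tumors on day 8 and 3 from late-stage tumors on day 15, all of wild-type genotype. Both arms of the AMPK experiment thus share the floxed alleles, and Cre under the Lyz2 locus acts in myeloid cells at large, not in TAMs alone. By the study's methods all mice were of C57BL/6 background and 5 weeks old when used, and the wild-type C57BL/6 mice were female. The genotype entries of AMPK-KO replicates 2 and 3 read Lyz3cre/cre and Lyz4cre/cre, against Lyz2cre/cre in their titles, and the titles were followed. Nothing in the labels says that libraries of a group came from separate animals, so the p-values below measure only the spread between these libraries.

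Complement is a cascade of plasma and tissue proteins that tags particles and cells for clearance. C1q, a hexamer of bundles that each hold an A, a B and a C chain, starts the classical pathway when it binds antibody complexes or altered cell surfaces, and macrophages are its main source in tissues. All pathways meet at C3, whose cleavage gives C3b for opsonization and the peptide C3a. Factor B (Cfb) and properdin (Cfp) build and stabilize the convertase of the alternative pathway, while C3a and C5a signal through the receptors C3ar1 and C5ar1 on myeloid cells.

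The libraries held 71019494 to 84470374 counts, and levels are given as counts per 1e6 (CPM) after TMM scaling within each table. At this depth a count of 3, taken as the detection limit, corresponds to at most 0.0422 CPM, so that depth did not limit any of the 8 genes. Prkaa1, which encodes the AMPKα1 subunit, was lower in AMPK-KO (42.9 ± 3.53 CPM, SD, n = 3) than in WT (65.0 ± 3.34), with a log2 fold change of −0.60 ± 0.07 (SE) and an adjusted p of 2.26e-04 in edgeR's quasi-likelihood test. Lyz2 itself, whose coding sequence the Cre allele disrupts, stood at 9.16 to 13.5 CPM in the libraries labelled WT and at 9.16 to 13.5 CPM in AMPK-KO, against 1092 to 3009 CPM in the early-stage and late-stage libraries. The level of Lyz2 therefore did not separate the AMPKfl/fl libraries from the Lyz2cre ones, the reason was not tested, and WT stands below for the libraries labelled AMPKfl/fl. The summed count of 4 Y-linked genes was 9229 to 12183 in the AMPK experiment, 3435 to 4035 in the early-stage libraries and 0 to 4 in the late-stage libraries, so that between stages this difference and tumor stage cannot be told apart. The study's methods name female wild-type mice, so the Y-linked counts of the early-stage libraries conflict with the stated sex. The wording of the methods does not settle whether the mice of the AMPK experiment were also female. Their libraries held Y-linked counts too. The reason for these counts was not tested. Adgre1, which encodes the sort marker F4/80, averaged 894 CPM in WT, 971 in AMPK-KO, 865 in early-stage and 936 in late-stage TAMs, while Ly6g, a neutrophil marker, had at most 5 counts in any library.

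In AMPK-KO against WT, C3 and Cfb rose, C5ar1 fell, and the other 5 genes did not pass the test. In late-stage against early-stage TAMs, C1qa rose, C3, C3ar1 and C5ar1 fell, and the other 4 did not pass. C3 had the largest fold change of the 8 in each comparison, and it was higher in AMPK-KO and lower in late-stage TAMs. A gene was called at an adjusted p under 0.05 in edgeR's quasi-likelihood test, with Benjamini-Hochberg adjustment over all genes tested. The 3 called of 8 in the AMPK experiment stand beside 21.1% of all genes tested (11.3% higher, 9.78% lower), and the 4 called of 8 in the stage experiment beside 9.18% (4.31% higher, 4.88% lower). Past an absolute log2 fold change of 1 as well, C3 alone of the 8 was called in each experiment, beside 3.34% and 1.87% of all genes tested. The values of both groups did not overlap for 3 of the 8 genes in the AMPK experiment, against 37.2% of all genes, and for 7 of the 8 in the stage experiment, against 31.2%. The median log2 fold change of the 8 was −0.09 in AMPK-KO against WT and −0.06 in late-stage against early-stage TAMs, and that of all genes tested was −0.0037 and 0.0027.

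**Figure D1:**
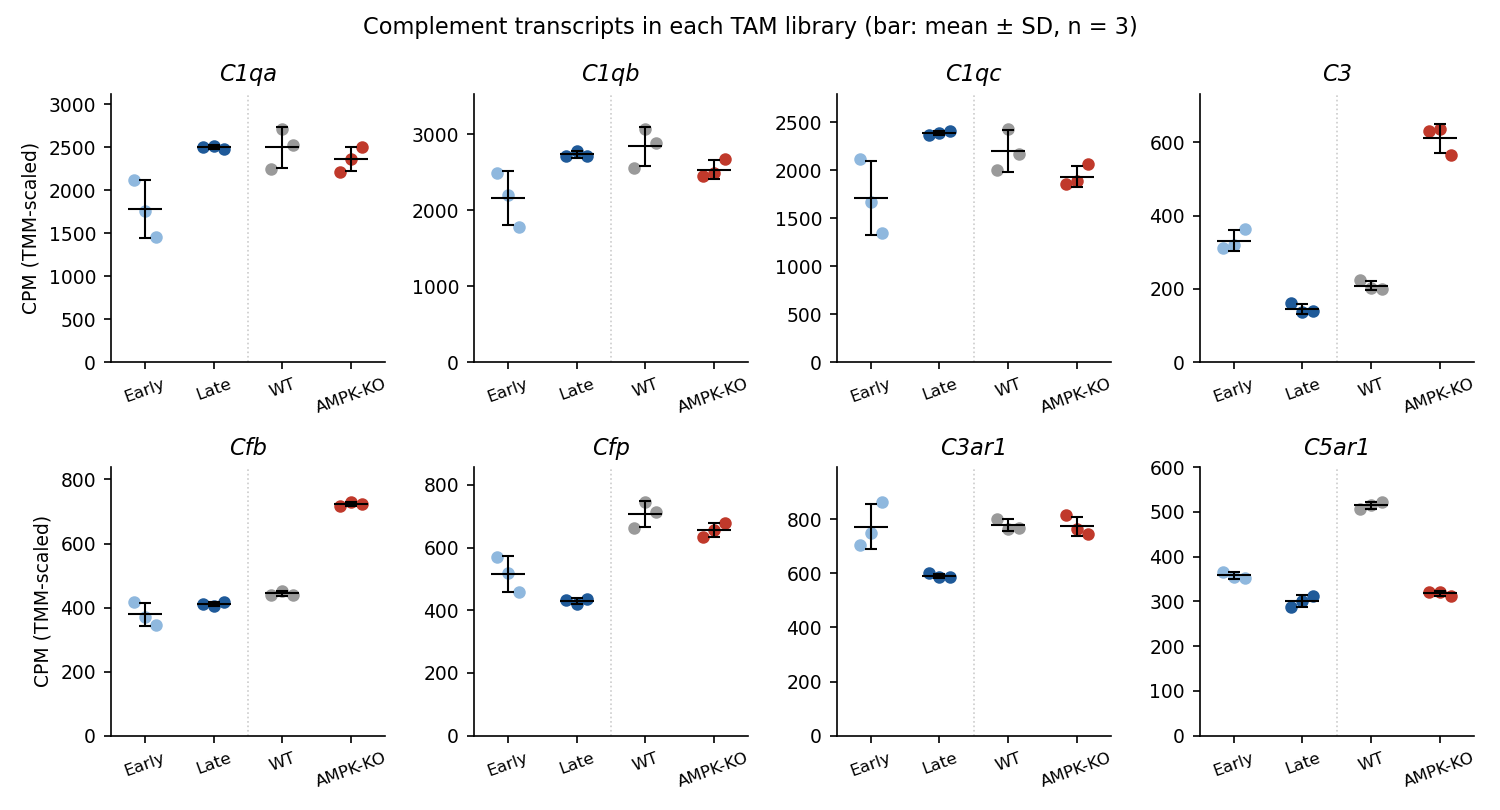
TMM-scaled CPM of the 8 complement genes in each of the 12 TAM libraries, by group, with 1 point per library and bars for the mean ± SD (n = 3). C3 sits at 566 to 638 CPM in AMPK-KO, above all other libraries, while the C1q genes have their lowest means and widest spread in the early-stage libraries.

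The C1q genes were the most abundant of the set per kilobase of exonic length, where they averaged 1141 to 2611 CPM per kilobase in WT against 407 for Cfp, the next. This order takes Cfb at its full exonic length, and its level is uncertain for the reason given below. By mean CPM, with no correction for length, C1qb, C1qa and C1qc ranked 20, 24 and 32 among the 17532 genes of the AMPK experiment and 22, 28 and 30 among the 17630 genes of the stage experiment. Together they took 0.691 to 0.810% of all counts in WT, 0.653 to 0.722% in AMPK-KO, 0.455 to 0.660% in early-stage and 0.761 to 0.774% in late-stage TAMs. The 3 genes lie side by side on the minus strand of chromosome 4 (GRCm38), within 18.7 kb. C1qb (ENSMUSG00000036905.8) is at chr4:136880129-136886187, C1qc (ENSMUSG00000036896.5) at chr4:136889804-136893065 and C1qa (ENSMUSG00000036887.5) at chr4:136895917-136898803. Each has 3 exon blocks, with no exonic base shared with another gene.

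The 250 bases before the RefSeq transcription start are shown for C1qb and C1qc, the C1q genes for which a promoter was found. The sequences are those of the minus strand of GRCm38.p6, 5′ to 3′, at chr4:136886201-136886450 for C1qb and chr4:136892915-136893164 for C1qc. Capitals mark the PU.1 core motif GAGGAA, or its reverse complement TTCCTC, PU.1 being the ETS factor of the myeloid lineage.
C1qb: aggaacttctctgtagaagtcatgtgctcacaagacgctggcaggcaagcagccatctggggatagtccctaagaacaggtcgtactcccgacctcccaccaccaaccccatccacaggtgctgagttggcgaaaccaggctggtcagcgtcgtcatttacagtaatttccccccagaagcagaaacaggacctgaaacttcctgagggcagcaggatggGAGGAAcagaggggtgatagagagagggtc
C1qc: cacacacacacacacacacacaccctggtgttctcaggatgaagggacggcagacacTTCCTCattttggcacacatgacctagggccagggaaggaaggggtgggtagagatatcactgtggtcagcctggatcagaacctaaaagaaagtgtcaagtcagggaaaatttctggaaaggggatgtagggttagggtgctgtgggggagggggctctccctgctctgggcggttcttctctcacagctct
The motif stands at −30 to −25 in C1qb and, reversed, at −193 to −188 in C1qc, counted from the base before RefSeq's start as −1. That start is not the end of the GENCODE model given above for either gene. The C1qb stretch begins beyond the model's end at 136886187, while the C1qc stretch overlaps the model, which ends at 136893065. The positions therefore hold for RefSeq's starts alone and cannot be compared between the genes by the models above. It occurs on either strand in 23.3% of the 32817 RefSeq promoters of this length, so these are matches of letters and not evidence of binding.

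In WT, C1qa stood at 2250, 2716 and 2522 CPM, and in AMPK-KO at 2216, 2361 and 2500. The libraries of the genotypes overlapped, with a log2 fold change of −0.08 ± 0.07 and an adjusted p of 0.449 in edgeR's test. C1qb stood at 2561, 3075 and 2886 CPM in WT and at 2446, 2485 and 2675 in AMPK-KO, a log2 fold change of −0.16 ± 0.06 with an adjusted p of 0.0965. C1qc stood at 2000, 2435 and 2175 CPM in WT and at 1853, 1890 and 2061 in AMPK-KO, a log2 fold change of −0.19 ± 0.07 with an adjusted p of 0.0794. All 3 chains thus had lower means in AMPK-KO, none passed the test, and in each case at least 1 AMPK-KO library lay within the WT range. Without WT replicate 1, the lowest WT library for each chain, C1qb (−0.23, adjusted p = 0.00566) and C1qc (−0.25, adjusted p = 0.011) passed edgeR's test, and C1qa did not.

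Between stages all 3 chains had higher means in late-stage TAMs, and C1qa passed the test. C1qa stood at 2123, 1758 and 1458 CPM in early-stage and at 2506, 2515 and 2475 CPM in late-stage TAMs, and rose by a log2 fold change of 0.49 ± 0.12 (1.40-fold) with an adjusted p of 0.0291 in edgeR's test. C1qc went from 2114, 1674 and 1348 CPM to 2365, 2394 and 2410 (0.48 ± 0.13, adjusted p = 0.0538 in edgeR's test). C1qb went from 2495, 2206 and 1785 CPM to 2708, 2784 and 2711 (0.34 ± 0.11, adjusted p = 0.0823 in edgeR's test). Every late-stage library was above every early-stage library for all 3 chains, and the early-stage libraries were widely spread, with an SD of 333 CPM for C1qa against 20.9 CPM in late-stage TAMs. Markers of the B16 tumor cells moved at the same time, with sums of 1609 to 1765 CPM in early-stage and 737 to 1162 CPM in late-stage TAMs (5 of 6 fell, against 4.88% of all genes tested), late-stage replicate 1 standing apart at 737. In the AMPK experiment they summed to 958 to 962 CPM in WT and 647 to 690 in AMPK-KO (5 of 6 fell, against 9.78%), and their part in any of the values given here was not tested. The calls hang on single libraries and on the test. C1qa was no longer called without early-stage replicate 2 (adjusted p = 0.115) or without late-stage replicate 1, 2 or 3 (0.102, 0.109 and 0.1002), or when genes of low count were kept in (0.0955). C1qb passed edgeR's test without early-stage replicate 1 (0.46, adjusted p = 0.0102), and C1qc without early-stage replicate 1 (0.66, adjusted p = 0.00205) or 3 (0.33, adjusted p = 0.0427). All 3 chains passed in DESeq2, with adjusted p-values of 4.52e-04, 0.0174 and 0.00232 for C1qa, C1qb and C1qc.

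The proportion of the chain transcripts to each other was compared per kilobase of exonic length, since the protein holds the chains in equal number. Per kilobase, C1qa averaged 2400 and C1qb 2611 CPM in WT, whereas C1qc averaged 1141. The lower level of C1qc hangs on the length used, all annotated exonic bases, which is 1931 for C1qc, 1040 for C1qa and 1088 for C1qb. From plain counts the C1qc to C1qa ratio in WT was 0.862 to 0.897. The C1qb to C1qa ratio was 1.09 ± 0.0058 in WT (SD, n = 3) and 1.03 ± 0.025 in AMPK-KO, and 1.16 ± 0.0384 in early-stage and 1.05 ± 0.0127 in late-stage TAMs. In both experiments the libraries of the groups did not overlap. The C1qc to C1qa ratio was 0.475 ± 0.0097 in WT and 0.442 ± 0.0098 in AMPK-KO, again without overlap, and 0.516 ± 0.0195 in early-stage and 0.515 ± 0.0084 in late-stage TAMs, where the libraries overlapped. Of these 4 two-sided exact permutation tests, 3 gave p = 0.1, the smallest value that 3 against 3 libraries allow, and the fourth p = 0.9, which became 0.133 and 0.9 after Benjamini-Hochberg adjustment. No ratio could therefore reach 0.05 in this design.

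**Figure D2:**
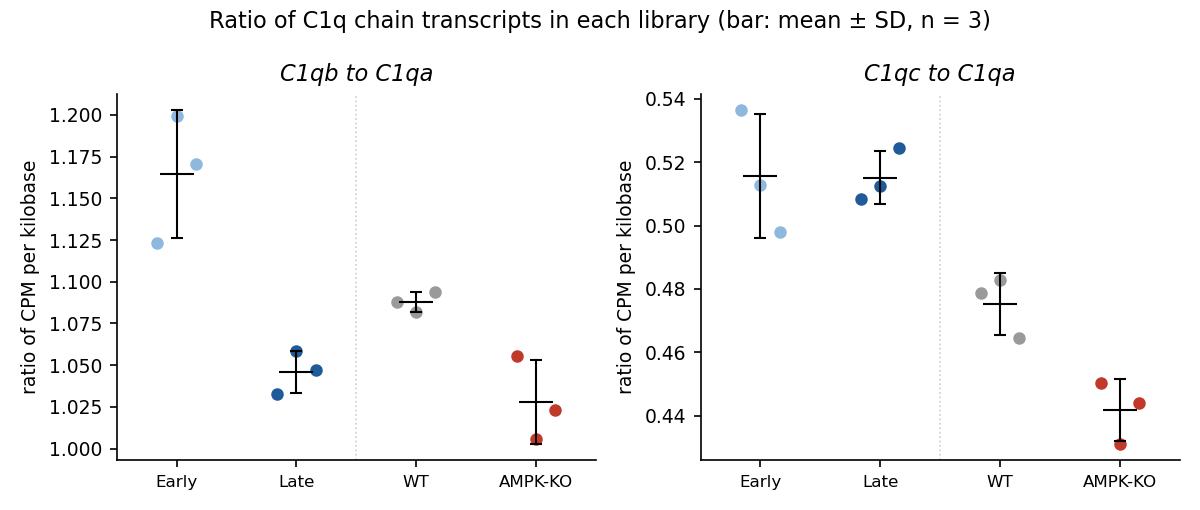
Ratio of CPM per kilobase of C1qb to C1qa (left) and of C1qc to C1qa (right) in each library, by group, with the mean ± SD (n = 3); the axes do not start at 0. The C1qb to C1qa ratio lies at 1.12 to 1.20 in the early-stage libraries and at 1.03 to 1.06 in the late-stage libraries.

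Likeness to the C1q genes was measured as the root-mean-square difference in log2 CPM from the mean C1q profile over all 12 libraries, each profile being centred within its table. Among the 8952 genes with at least 10 CPM in both tables the median difference was 0.245, and the chains themselves lay at 0.031 to 0.0426 from their own mean. The 5 nearest other genes were Maz (0.0588), Reep4 (0.0589), Snrnp25 (0.0593), Igsf8 (0.0611) and Ccs (0.0616). None of these is a complement gene, and of the remaining members Cfp was nearest (0.259) and C3 farthest (0.856). A gene with no change over the libraries would lie at 0.213, nearer than any of these remaining members.

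C3 (ENSMUSG00000024164.15) is at chr17:57203970-57228136 on the minus strand, with 42 exon blocks and 5143 exonic bases, none of them shared with another gene. It stood at 225, 202 and 201 CPM in WT and at 630, 638 and 566 CPM in AMPK-KO. Every AMPK-KO library was thus far above every WT library. C3 rose 2.92-fold, a log2 fold change of 1.55 ± 0.06 with an adjusted p of 2.21e-07 in edgeR's test, which ranked 14 among the 17532 genes by adjusted p. In early-stage TAMs C3 stood at 311, 320 and 365 CPM and in late-stage TAMs at 161, 136 and 141. It fell by 1.18 ± 0.09 on the log2 scale, with an adjusted p of 6.82e-05 in edgeR's test and rank 48 among 17630 genes. The order of the group means was late-stage (146), WT (209), early-stage (332) and AMPK-KO (611 CPM), and no neighbours in this order overlapped. WT and late-stage TAMs were both taken on day 15, but the tables come from separate experiments, and experiment and genotype cannot be told apart between them. Both calls held in each of the alternatives tried.

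The sequence before the C3 start, the gene whose group means differed by the largest fold, is printed from the minus strand of GRCm38.p6 at chr17:57228137-57228386, 5′ to 3′, with RefSeq's start. Capitals mark a match to TTGCNNAA, a core motif of the C/EBP factors, which drive many acute-phase genes.
C3: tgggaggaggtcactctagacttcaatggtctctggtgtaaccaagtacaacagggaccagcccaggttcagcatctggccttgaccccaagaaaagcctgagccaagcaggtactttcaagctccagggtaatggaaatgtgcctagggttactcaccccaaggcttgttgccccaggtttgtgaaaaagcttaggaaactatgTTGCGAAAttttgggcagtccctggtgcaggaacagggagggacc
The match lies at −45 to −38, and 9.57% of the 32817 promoters hold this motif, which was added to the search after the sequences had been seen. The GAS element TTCNNNGAA (7.01% of promoters), the core of the interferon-stimulated response element (ISRE, 2.97%) and the E-box CACGTG (6.02%) were searched on both strands and had no match in the 6 member promoters found (C1qb, C1qc, C3, Cfp, C3ar1 and C5ar1), and no motif of the 5 matched in Cfp, C3ar1 or C5ar1.

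Several marker lists moved with C3, and others did not. In bulk RNA, fewer cells of a type and less RNA per cell cannot be told apart. The 5 monocyte markers, Ccr2 and Ly6c2 among them, summed to 502 to 534 CPM in WT and 823 to 853 in AMPK-KO, and to 540 to 648 in early-stage and 222 to 252 in late-stage TAMs. Of them 3 rose in AMPK-KO and 4 fell in late-stage TAMs, against 11.3% and 4.88% of all genes tested in those directions. The 7 fibroblast markers summed to 575 to 621 CPM in WT, 747 to 829 in AMPK-KO, 811 to 884 in early-stage and 397 to 561 in late-stage TAMs, with 6 of 7 higher and 3 of 7 lower. The 7 neutrophil markers summed to 116 to 119 CPM in WT and 174 to 179 in AMPK-KO (3 of 6 tested rose), and to 93.5 to 113 and 76.2 to 87.1 in the stage experiment (3 of 5 tested fell), but Ly6g, their defining marker, had 0 counts in WT, AMPK-KO and early-stage TAMs. The 7 markers of resident-type macrophages, such as Cd163, Lyve1 and Folr2, went another way in the AMPK experiment, with 2652 to 2754 CPM in WT and 1654 to 1815 in AMPK-KO (7 of 7 fell), and 1465 to 1686 in early-stage and 939 to 967 in late-stage TAMs (6 of 7 fell). The 6 NK-cell markers summed to 31.1 to 34.7 CPM in WT and 77.2 to 78.4 in AMPK-KO (6 of 6 rose), and to 85.4 to 98.1 in early-stage and 37.3 to 50.9 in late-stage TAMs (5 of 6 fell). The 5 endothelial markers summed to 56.2 to 68.6 CPM in WT and 125 to 128 in AMPK-KO (2 of 4 tested rose and 1 fell), and to 97.4 to 99.1 and 86.3 to 90.4 in the stage experiment (1 of 5 fell). The 6 T-cell markers summed to 76.5 to 91.5 CPM in WT and 148 to 156 in AMPK-KO (5 of 6 rose). Unlike C3, they also went up between stages, from 128 to 136 early to 157 to 188 late (2 of 6 rose). The 5 B-cell markers went against C3, with 30.9 to 32.5 CPM in WT and 19.9 to 22.1 in AMPK-KO (4 of 5 fell, 1 rose). Their sums were 37.3 to 41.8 in early-stage and 57.5 to 82.9 in late-stage TAMs (3 of 5 rose). These counts too stand beside 11.3% of all genes tested that rose and 9.78% that fell in the AMPK experiment, and 4.31% and 4.88% in the stage experiment. By the study's methods the sort excluded Ly6C+ and Ly6G+ cells, but its supplementary legends write Ly6C+ for the TAMs. The part of these lists in the C3 values was not tested.

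**Figure D3:**
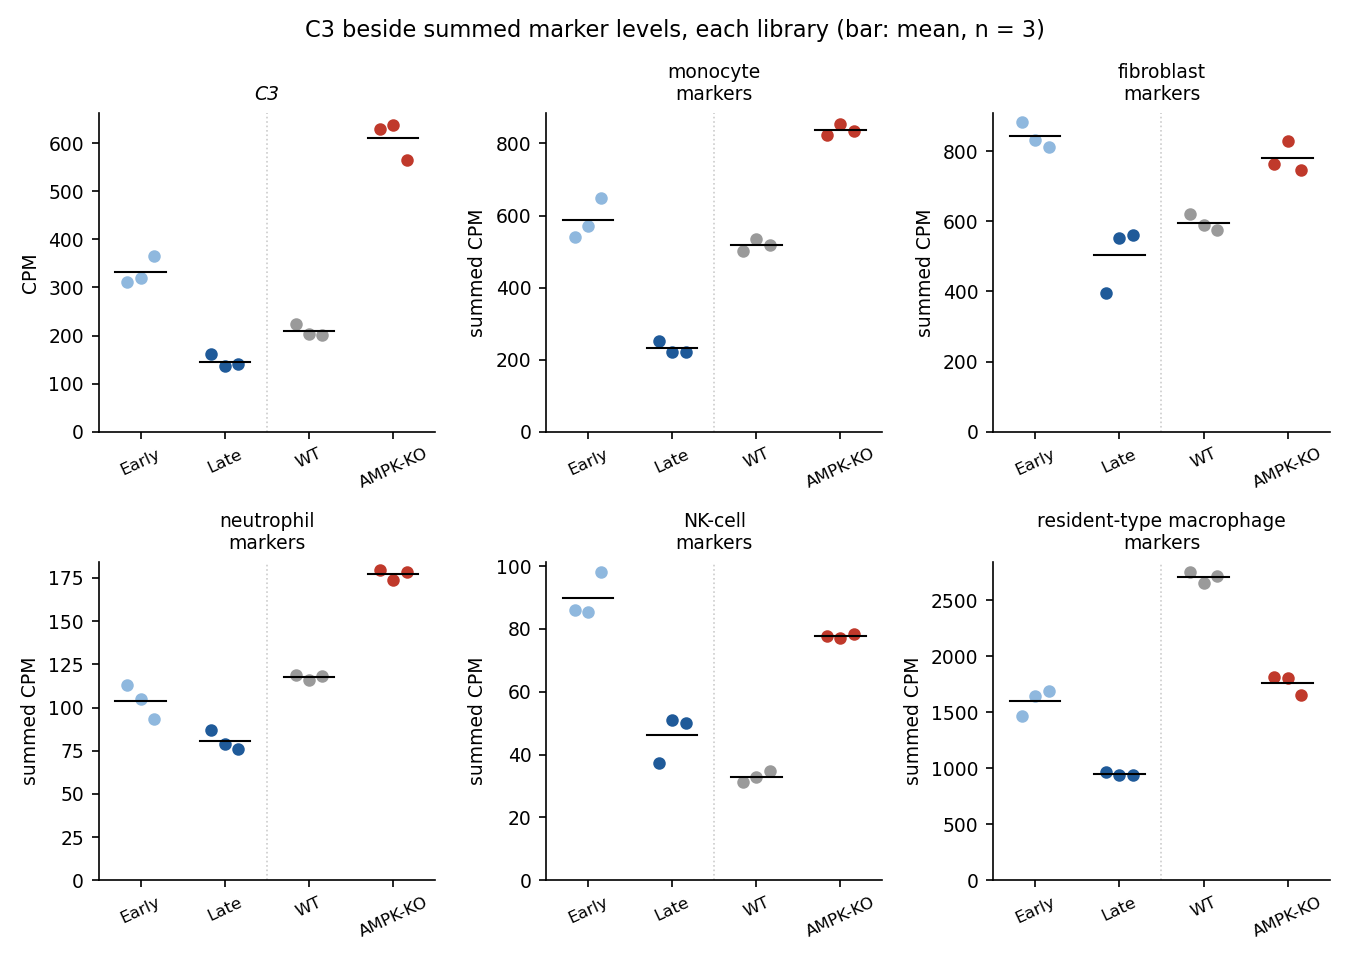
CPM of C3 and summed CPM of the monocyte, fibroblast, neutrophil, NK-cell and resident-type macrophage marker lists in each library, by group, with a bar for the mean (n = 3). Monocyte marker sums lie at 823 to 853 in AMPK-KO and at 222 to 252 in late-stage TAMs, the highest and the lowest of the 4 groups, as for C3.

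Factor B, the next component of the alternative convertase, rose in AMPK-KO and did not pass the test between stages. Cfb (ENSMUSG00000090231.10; chr17:34856374-34862518, minus strand, 17 exon blocks) stood at 440, 452 and 440 CPM in WT and at 718, 730 and 723 in AMPK-KO. It rose 1.63-fold, a log2 fold change of 0.70 ± 0.04 with an adjusted p of 1.09e-06 in edgeR's test. In the stage experiment it stood at 418, 371 and 347 CPM early and 413, 406 and 419 CPM late, where the groups overlapped (0.12 ± 0.08, adjusted p = 0.382 in edgeR's test). The annotation places 79.5% of the exonic bases of Cfb also in Gm20547, a protein-coding model over exons of Cfb and C2 that has no exonic base of its own and had 0 counts in every library. How the counting treated such shared reads is not given in the sources used here, so the level of Cfb is uncertain.

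Properdin, which stabilizes the convertase and so promotes complement activation, is X-linked (Cfp, ENSMUSG00000001128.7, chrX:20925454-20931555, minus strand, 9 exon blocks). It stood at 663, 745 and 713 CPM in WT and 635, 656 and 678 in AMPK-KO, which overlapped (−0.11 ± 0.05, adjusted p = 0.179 in edgeR's test). In early-stage TAMs it stood at 571, 519 and 458 CPM and in late-stage TAMs at 432, 420 and 436. The late-stage libraries were all lower, yet the difference did not pass (−0.26 ± 0.09, adjusted p = 0.0880 in edgeR's test). It passed without early-stage replicate 3 (−0.34, adjusted p = 0.00899) and in DESeq2 (adjusted p = 0.0354), and in AMPK-KO against WT it passed edgeR's test without WT replicate 1 (−0.15, adjusted p = 0.0373).

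The receptors for C3a and C5a did not move alike in the AMPK experiment. C5ar1 (ENSMUSG00000049130.6; chr7:16246743-16259540, minus strand, 3 exon blocks) stood at 507, 515 and 522 CPM in WT and at 322, 322 and 312 in AMPK-KO. It fell by 0.69 ± 0.04 on the log2 scale, to 0.618 of the WT level, with an adjusted p of 1.81e-06 in edgeR's test. C3ar1 (ENSMUSG00000040552.8; chr6:122847138-122856161, minus strand, 2 exon blocks) stood at 802, 765 and 766 CPM in WT and at 814, 764 and 746 in AMPK-KO. Its groups overlapped throughout, with a log2 fold change of −0.01 ± 0.05 and an adjusted p of 0.946 in edgeR's test, and its sign turned without WT replicate 1 (0.02) or AMPK-KO replicate 2 (0.0038) or 3 (0.02). The difference between the changes of the receptors was itself not tested.

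Between stages both receptors fell. C3ar1 went from 703, 750 and 863 CPM in early-stage to 600, 587 and 587 CPM in late-stage TAMs, and fell by 0.39 ± 0.08 on the log2 scale with an adjusted p of 0.0194 in edgeR's test. C5ar1 went from 366, 355 and 353 CPM to 287, 301 and 313, and fell by 0.25 ± 0.07 with an adjusted p of 0.0421 in edgeR's test. Every late-stage library was below every early-stage library for both genes. The call of C3ar1 was lost without early-stage replicate 2 (adjusted p = 0.0676) or late-stage replicate 1, 2 or 3 (0.0708, 0.0982 and 0.0948). The call of C5ar1 was lost without the same libraries (0.123, 0.162, 0.175 and 0.112). Both were lost when genes of low count were kept in (0.0525 for C3ar1 and 0.0738 for C5ar1), and that of C5ar1 also with the replicate number as a block (0.0869).

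C3ar1 encodes the receptor of the fragment C3a, not of C3 itself. Set per kilobase, C3 stood well below C3ar1 in WT, with 40.7 CPM per kilobase against 181. In AMPK-KO C3 was nearer to C3ar1 (119 against 180). As C3ar1 was level there, the ratio in the AMPK experiment follows the change of C3 given above. The C3 to C3ar1 ratio per library was 0.220 to 0.234 in WT and 0.635 to 0.699 in AMPK-KO. It was 0.353 to 0.370 in early-stage and 0.195 to 0.225 in late-stage TAMs, and in neither experiment did the groups overlap.

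**Figure D4:**
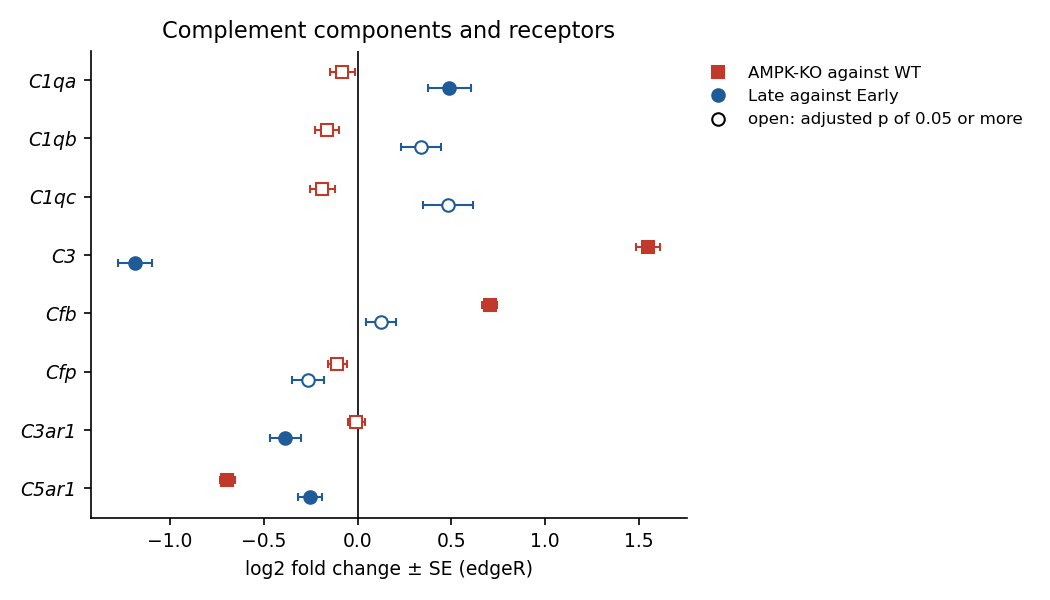
Log2 fold change ± SE of the 8 complement genes in edgeR's fit, AMPK-KO against WT (red squares) and late-stage against early-stage TAMs (blue circles), filled where the adjusted p was under 0.05. C3 lies at 1.55 and −1.18, and C5ar1 is the gene below 0 and filled in both (−0.69 and −0.25).

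A further 53 complement genes were followed as 4 lists (classical and lectin pathway, alternative and terminal pathway, regulators, other receptors). In each experiment 32 of them were tested and 21 were not, and 11 of the latter had no count in any library of the AMPK experiment and 8 in the stage experiment. In AMPK-KO against WT 8 rose and 11 fell, with a median log2 fold change of 0.04 that does not hang on the value fitted for Cr2, and in late-stage against early-stage TAMs 4 rose and 4 fell, with a median of −0.07. These counts, and those by list that follow, stand beside 11.3% higher and 9.78% lower among all genes tested in the AMPK experiment, and 4.31% and 4.88% in the stage experiment. No gene of the alternative and terminal list passed edgeR's test, of 3 tested in the AMPK experiment and 2 in the stage experiment, and the count was also 0 at an unadjusted p under 0.05 and in DESeq2.

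In the classical and lectin list, 4 of 11 rose and 3 fell in AMPK-KO. C1s1, the protease subunit that cleaves C4 and C2, averaged 2.78 CPM in WT and 5.75 CPM in AMPK-KO and rose by 1.05 on the log2 scale (adjusted p = 8.34e-04 in edgeR's test). C4a rose from 2.16 to 6.04 CPM (1.48, adjusted p = 1.10e-04 in edgeR's test). Both have near-identical copies in the mouse genome, C1s2 and C4b, so their counts are uncertain. Fcna, a ficolin that recognizes microbial sugars for the lectin pathway, fell from 94.4 ± 5.13 to 48.3 ± 5.21 CPM (−0.97, adjusted p = 1.86e-05 in edgeR's test). Calr, the chaperone calreticulin, which also binds C1q at the cell surface, fell from 1503 to 1124 CPM (−0.42, adjusted p = 6.71e-05 in edgeR's test).

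In the same list 2 of 11 rose and 3 fell in late-stage TAMs. C4b, the main mouse C4 gene, stood at 148 to 153 CPM in early-stage and at 281 to 307 CPM in late-stage TAMs, without overlap. It rose 1.93-fold (0.95 ± 0.07, adjusted p = 4.36e-05 in edgeR's test). Colec12, a scavenger receptor of the collectin family, fell from 18.2 to 6.78 CPM (−1.43, adjusted p = 1.19e-04 in edgeR's test). C4a (1.19, adjusted p = 0.0338) and Fcna (−0.74, adjusted p = 0.0295) also passed edgeR's test. The call of C4a was lost without early-stage replicate 2 or 3 or late-stage replicate 1 or 2 (adjusted p of 0.128, 0.0712, 0.128 and 0.0985), and that of Fcna without early-stage replicate 2 or late-stage replicate 1, 2 or 3 (0.112, 0.115, 0.111 and 0.105).

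Of the 9 other receptors 3 rose and 5 fell in AMPK-KO. The risers were the integrin subunits of complement receptors 3 and 4, which bind the C3 fragment iC3b. Itgax rose from 119 to 254 CPM (1.10 ± 0.06, adjusted p = 7.32e-07 in edgeR's test), Itgam from 1067 to 1566 CPM (0.55 ± 0.05, adjusted p = 3.41e-05) and their partner Itgb2 from 788 to 1010 CPM (0.36 ± 0.04, adjusted p = 6.84e-05). Itgam encodes CD11b, which the sort selected for. Itgax encodes CD11c, which dendritic cells carry as well, and the 7 dendritic-cell markers summed to 80.7 to 91.1 CPM in WT and 125 to 132 in AMPK-KO (6 of 7 rose, against 11.3% of all genes tested), and their part in these values was not tested.

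Among the receptors that fell, Vsig4, a C3b receptor of resident macrophages, went from 4.99 to 1.38 CPM (−1.85 ± 0.22, adjusted p = 2.15e-04 in edgeR's test), beside the fall of the resident-type markers given above. Between stages, where 6 of 7 of these markers fell, Vsig4 was low and was not called. It averaged 0.81 CPM early and 0.60 CPM late (−0.42, adjusted p = 0.622 in edgeR's test). The relation of Vsig4 to these markers was not tested. Cr2, complement receptor 2 of B cells, had 109 to 199 counts per library in WT and 0 to 2 in AMPK-KO (446 against 2 counts in all, adjusted p = 2.53e-05 in edgeR's test). The B-cell markers Cd79a, Ms4a1 and Pax5 fell in the same libraries (1163, 757 and 710 counts in WT against 25, 93 and 8 in AMPK-KO), while Cd79b rose. In late-stage TAMs 2 of the 9 receptors rose and 0 fell in edgeR's test (4 and 1 at an unadjusted p under 0.05, 4 and 0 in DESeq2). Itgax rose from 129 to 190 CPM (0.56 ± 0.07, adjusted p = 9.98e-04 in edgeR's test). The 7 dendritic-cell markers summed to 89.7 to 98.1 CPM early and 93.5 to 100.4 CPM late. Of them 1 rose (Ccr7) and 1 fell (Cd209a), against 4.31% and 4.88% of all genes tested. Their part in the Itgax values was not tested.

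**Figure D5:**
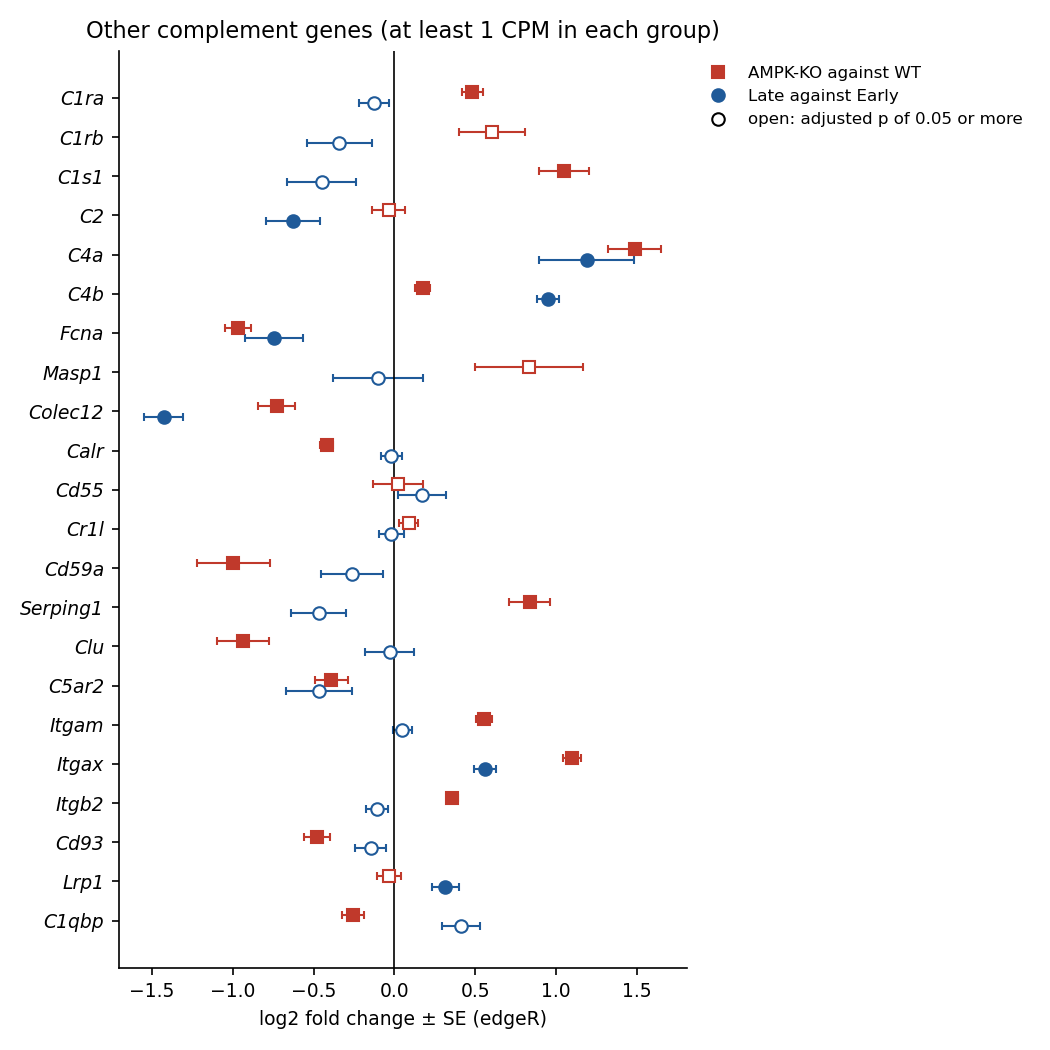
Log2 fold change ± SE of 22 further complement genes with at least 1 CPM in each group, AMPK-KO against WT (red squares) and late-stage against early-stage TAMs (blue circles), filled where the adjusted p was under 0.05 in edgeR's test. C4a (1.48) and Itgax (1.10) lie farthest to the right in the AMPK experiment, and Colec12 (−1.43) lies farthest to the left in the stage experiment.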

How the data were processed

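The 8 genes and all gene lists were chosen with earlier results of these data known. The deposited values are raw counts per gene, in 1 table per experiment, which the authors made with HISAT2 and featureCounts. Per the labels' processing notes the build was mm10 (GRCm38), while the study's methods write GRCh38. Versions, strand settings and the handling of multiply mapped reads are not given in the sources used here. No column was left unused (0). Coordinates are from GENCODE M21, whose versioned identifiers matched all 8 genes, and promoters are from RefSeq (GRCm38.p6). The RefSeq starts of C1qb, C1qc, C3ar1 and C5ar1 differ from the ends of their GENCODE models. Promoters of C1qa and Cfb were not used here.

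From the counts, edgeR (4.0.16, in R 4.3.3) was run per table with filterByExpr, TMM factors and the quasi-likelihood test, with Benjamini-Hochberg adjustment over all genes tested and a threshold of 0.05. SE is the log2 fold change divided by the root of F. The scripts were checked on simulated data. Totals were 71019494 to 84470374 counts per library, and a floor of 3 counts covers counting error only. Samples were grouped by title. Ratios were compared with exact permutation tests (scipy 1.17.1). Of the 53 further complement genes, those with an absolute log2 fold change above 1 at an adjusted p under 0.05 in either comparison were named, plus the 3 higher and 3 lower with the smallest adjusted p in each. Some results are not reported here.

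Alternatives were RLE and upper-quartile factors, library totals alone, no filter, at least 10 counts in every library, DESeq2 (1.42.0), the replicate number as a block, and leaving out each library.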

Additional observations from a re-analysis of the deposited data

How the results depend on the processing

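C3, Cfb and C5ar1 in AMPK-KO against WT, and C3 in late-stage against early-stage TAMs, kept their direction and call in each of the 7 alternatives and without each library. Over the member fold changes, 173 alternative values kept direction and side of the threshold, 16 lost a call, 16 gained one and 3 turned sign. The causes were not tested.

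In AMPK-KO against WT, leaving out a library gave −0.23 to −0.10 for C1qb, −0.25 to −0.11 for C1qc, −0.15 to −0.0664 for Cfp and −0.043 to 0.0197 for C3ar1 (not called in any), 1 to 4 members lower and 1068 to 1937 genes lower. In late-stage against early-stage TAMs it gave 0.36 to 0.64 for C1qa, 0.22 to 0.46 for C1qb, 0.33 to 0.66 for C1qc, −0.34 to −0.18 for Cfp, −0.45 to −0.30 for C3ar1, −0.28 to −0.22 for C5ar1 and −0.0535 to 0.0077 for Calr. The counts were then 0 to 3 members higher and 1 to 4 lower, 2 to 5 further complement genes higher and 2 to 5 lower, and 284 to 1514 genes higher and 369 to 1321 lower.

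With DESeq2, C1qc in AMPK-KO against WT passed (−0.19), so that 2 members were lower. Between stages DESeq2 called C1qb (0.34), C1qc (0.48) and Cfp (−0.26), 3 members higher and 1176 genes higher. With no filter on low counts, C1qa (0.49), C3ar1 (−0.39) and C5ar1 (−0.25) between stages lost their calls, leaving 0 members higher and 1 lower, 2 further complement genes higher and 2 lower, and 429 genes higher and 507 lower. The edgeR fit called 759 genes higher and 860 lower. C1qc between stages passed with library totals alone (0.51) and with 10 counts in every library (0.49), each giving 2 members higher, and with library totals alone Calr turned to 0.0066. The C1qc to C1qa ratio over all 12 libraries was 0.904 from plain counts and 0.487 per kilobase.

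Same-numbered libraries correlated at 0.463, −0.144 and 0.133 in the AMPK experiment and at 0.0525, −0.0677 and 0.115 in the stage experiment, so the numbers were not taken to pair libraries. With the replicate block, C1qb (−0.16) and C1qc (−0.18) passed in AMPK-KO against WT, giving 3 members lower. Between stages C1qc passed (0.51), giving 2 members higher, and C5ar1 did not (−0.25).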
